A study of Mus musculus with 3 samples.

Results

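The 10 genes described here make, receive or process 2 families of lipid messengers, the prostaglandins and the leukotrienes, in mouse peritoneal macrophages. They were chosen by gene symbol: Ptgs1, Ptgs2, Ptges and Ptgis for prostaglandin synthesis, Ptger2 and Ptger4 for prostaglandin receptors, and Alox5, Alox5ap, Lta4h and Alox15 for leukotriene synthesis and related lipoxygenation. Of the 10, 8 have a row among the 20574 gene symbols of each library. Ptges and Alox5ap were not analysed here. RNA came from primary peritoneal macrophages in 3 conditions, with 1 library each: no coculture, 5 h of coculture with apoptotic cells (5 for each macrophage), and 5 h with 100 ng/ml LPS, the bacterial endotoxin that activates macrophages through TLR4. All were grown in DMEM, and apoptotic cells that had not been engulfed were rinsed off. The labels give no time for the untreated macrophages and no strain, sex or age of the mice, and they do not name the kind of apoptotic cell. Treatment and time in culture therefore cannot be told apart in comparisons with the untreated library. With 1 library per condition every difference below is between 2 libraries, with no replicate check and no p-value.

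Both families start from arachidonic acid, a fatty acid that phospholipases cut from membrane lipids. Cyclooxygenases turn it into prostaglandin H2, from which terminal synthases make prostaglandin E2, prostacyclin, thromboxane and others, and 5-lipoxygenase with its activating protein turns it into leukotriene A4, the precursor of leukotriene B4 and of the cysteinyl leukotrienes. In macrophages prostaglandin E2 acts largely through cyclic AMP by way of the receptors EP2 and EP4, and it is known both as a product of inflammatory stimuli and as a mediator released around dying cells.

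Between the untreated and the apoptotic-cell library the cyclooxygenase genes differed in opposite directions. Ptgs2, the inducible cyclooxygenase (COX-2), had a 59.3-fold lower FPKM value with apoptotic cells than without treatment, and Ptgs1, the cyclooxygenase that most cells keep on (COX-1), was 5.09-fold higher. The start regions of these genes are shown because that pair is the main contrast. The sequences come from RefSeq (GRCm38.p6, the assembly also called mm10) and run from 100 bases before the annotated start to base 30 after it, 5′ to 3′ on the gene's strand. Capitals mark matches to the motifs searched.
Ptgs2, chr1:150099931-150100060, + strand: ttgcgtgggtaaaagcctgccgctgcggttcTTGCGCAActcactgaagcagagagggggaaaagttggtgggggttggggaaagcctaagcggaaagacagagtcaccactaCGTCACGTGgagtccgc
Ptgs1, chr2:36230326-36230455, + strand: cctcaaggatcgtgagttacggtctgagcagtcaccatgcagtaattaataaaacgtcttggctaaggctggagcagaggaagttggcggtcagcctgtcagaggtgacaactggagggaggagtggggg

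Letter patterns were searched on both strands of the whole 300-base window (250 bases before the start and 50 from it). The patterns were the E-box CACGTG, the cyclic AMP response element half-site TGACG, the C/EBP palindrome TTGCGCAA, the TATA box TATAAA and the NF-kB consensus. In Ptgs2 the C/EBP palindrome lay from base -69 to base -62, the half-site from base 14 to base 18 on the opposite strand, and the E-box from base 17 to base 22, so the last of these overlap. Of 32851 RefSeq promoter windows of the same length, 0.183% held the C/EBP palindrome, 20.8% the half-site and 7.15% the E-box, against 13.6% for the TATA box and 8.46% for the NF-kB consensus. None of these patterns was found in the windows of the other 6 members with an entry (Ptges, Ptgs1, Alox5, Lta4h, Ptger2 and Ptger4). That says only that these letters are not in those windows.

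Values are FPKM, fragments per kilobase of transcript per 1000000 mapped fragments, so levels of different genes can be set side by side within a library. Where 3 values stand together they are in the order untreated, apoptotic cells, LPS. The plot of the members by library shows them all, together with the values listed as exactly 0. A 0 is reported here as listed. It does not show absence, because genes that every cell uses were also listed at 0. Among the pathway's own genes, Ptges3, which encodes an abundant chaperone partner (p23) that also makes prostaglandin E2, stood at 160 FPKM with apoptotic cells, whereas the untreated and LPS libraries list it at 0. Ratios were therefore formed only between libraries that both list a gene above 0.

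**Figure D1:**
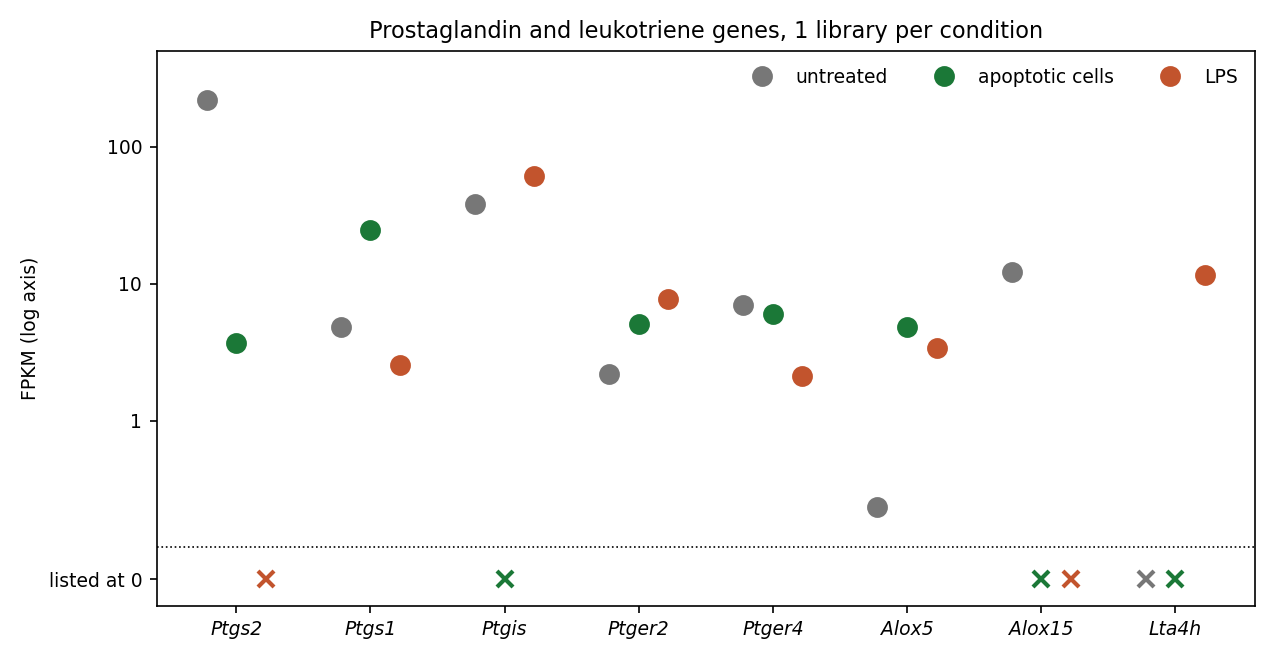
Level of the 8 members with a row, in FPKM on a log axis, with 1 point per library (grey untreated, green apoptotic cells, orange LPS). Crosses under the dotted line are values listed at 0; Ptgs2 spans the widest range, from 218 FPKM untreated to 3.67 FPKM with apoptotic cells.

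Ptgs2 (chr1:150100031-150108227, 10 exons) stood at 218 FPKM untreated, 3.67 FPKM with apoptotic cells and 0 with LPS. The untreated library stood far above the other value: 98.5% of the genes it lists above 0 were lower than Ptgs2, against 48.4% with apoptotic cells. Ratios below are on the scale of log2(FPKM + 1), which is smaller than the change in FPKM for low genes. The fold values of the cyclooxygenases above, and levels given below as multiples of another gene, are of FPKM itself. On the log2 scale the difference between apoptotic cells and no treatment was -5.55. It was the lowest ratio among the 3369 genes compared. Ptgs2 is a textbook target of LPS in macrophages. Its listed 0 in that library is given with the other zeros below, and no ratio is formed from it, as for every listed 0.

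Ptgs1 (chr2:36230426-36252272, 11 exons) was listed at 4.82 FPKM untreated, 24.5 FPKM with apoptotic cells and 2.56 FPKM with LPS. The apoptotic-cell library was the high one, and the other 2 lay closer together. The log2 ratio was 2.13 for apoptotic cells against no treatment, above 97.7% of genes compared, and 2.84 for apoptotic cells against LPS, above 99.1%. For LPS against no treatment it was -0.71, under 2-fold, and -0.30 relative to the median of all genes in that comparison.

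The order of the cyclooxygenases thus differed between libraries. Without treatment the Ptgs2 level was 45.1 times the Ptgs1 level, and with apoptotic cells the Ptgs1 level was 6.69 times the Ptgs2 level. In the LPS library the 2.56 FPKM of Ptgs1 stood beside a listed 0 for Ptgs2, so no ratio was formed there.

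Ptgis (chr2:167191805-167240604, 10 exons) encodes prostacyclin synthase, which turns prostaglandin H2 into prostacyclin. It was listed at 37.9 FPKM untreated, 0 with apoptotic cells and 61.4 FPKM with LPS, the highest member value in the LPS library. The ratio of LPS to no treatment was 0.68, under 2-fold, and 1.09 relative to the median of all genes. Median-of-ratios scaling, which centres the libraries on the genes they share, took it past 2-fold (1.29). The prostacyclin receptor gene Ptgir, which is on the receptor list and not a member, had the same arrangement, with 12.3 FPKM untreated, 0 with apoptotic cells and 34.95 FPKM with LPS (log2 ratio to no treatment 1.44).

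Ptger2 (chr14:44988195-45003820, 2 exons), which encodes EP2, was listed at 2.204 FPKM untreated, 5.11 FPKM with apoptotic cells and 7.77 FPKM with LPS. Both treated libraries were above the untreated one. The log2 ratio was 1.45 with LPS, above 95.4% of genes compared, and 0.93 with apoptotic cells, just under 2-fold on this scale and 2.32-fold on the FPKM themselves. With a pseudocount of 0.1 FPKM in place of 1 the latter became 1.18, past 2-fold. With a pseudocount of 5 FPKM the ratios were 0.83 with LPS and 0.49 with apoptotic cells, under 2-fold.

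Ptger4 (chr15:5206661-5244187, 3 exons), which encodes EP4, was listed at 6.96 FPKM untreated, 6.05 FPKM with apoptotic cells and 2.14 FPKM with LPS. Here the LPS library was the low one and the other 2 were close. The log2 ratio was -1.34 for LPS against no treatment and -0.18 for apoptotic cells against no treatment. Relative to the median of all genes these were -0.94 and -0.04, and median-of-ratios scaling gave -0.86 and 0.01, so the lower level with LPS no longer reached 2-fold and the sign with apoptotic cells turned.

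The balance of the EP receptors differed between libraries too. The Ptger4 level was 3.16 times the Ptger2 level without treatment and 1.18 times with apoptotic cells, and the Ptger2 level was 3.63 times the Ptger4 level with LPS. In GENCODE M21 Ptger2 is overlapped on the opposite strand by Gm17173 and Gm49364, Ptger4 by Gm15937 and the protein-coding Ttc33, Ptgs1 by Gm43621, and Ptgis by 1110018N20Rik and Gm14291. The strandedness of the libraries is not given in the sources used here, so reads of these partners may not be separated. Ptger1, which encodes EP1, stood at 11.9 FPKM untreated, 10.1 FPKM with apoptotic cells and 5.57 FPKM with LPS and stayed under 2-fold on the log2(FPKM + 1) scale in each comparison, although its FPKM was 2.13-fold lower with LPS than without treatment.

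Alox5 (chr6:116410077-116461178, 14 exons) encodes 5-lipoxygenase, the first enzyme of leukotriene synthesis. It was listed at 0.235 FPKM untreated, 4.83 FPKM with apoptotic cells and 3.42 FPKM with LPS. Both treated libraries were above the untreated one, by a log2 ratio of 2.24 with apoptotic cells and 1.84 with LPS, and they differed from each other by 0.40. The untreated value rests on few fragments: judged from the steps between the lowest values in the file, it stands for roughly 2 fragments, against roughly 40 and 26 in the others. With a pseudocount of 5 FPKM the ratios were 0.91 and 0.69, under 2-fold.

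Lta4h (chr10:93453411-93484875, 19 exons), whose product turns leukotriene A4 into the neutrophil attractant leukotriene B4, stood at 11.5 FPKM with LPS and was listed at 0 in the untreated and apoptotic-cell libraries. Alox15 (chr11:70344152-70352031, 14 exons) encodes 12/15-lipoxygenase, an enzyme known as a product of resident peritoneal macrophages that oxidises several fatty acids. Its level was 12.3 FPKM untreated, and both treated libraries list it at 0. Neither gene could be compared as a ratio.

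Listed zeros are common in these files, and 4 members have at least 1. Averaged over the libraries, 7147 genes reached 1 FPKM, and 40.5% of them were above 0 in each library, as were Ptgs1, Ptger2, Ptger4 and Alox5. A further 6.69% were at 0 with LPS alone, like Ptgs2, and 7.42% with apoptotic cells alone, like Ptgis. Alox15 shares its arrangement with 4.30% of these genes and Lta4h with 9.28%. The largest share with a listed 0, 23.9%, was at 0 in the untreated library alone, an arrangement that no member has. Genes high in other libraries were listed at 0 too: of 512 genes with at least 30 FPKM in both the untreated and the LPS library, which include Ptgis, 22.5% were listed at 0 with apoptotic cells. Counted in the same way, 27.9% of 584 genes were listed at 0 in the untreated library and 17.9% of 519 with LPS.

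**Figure D2:**
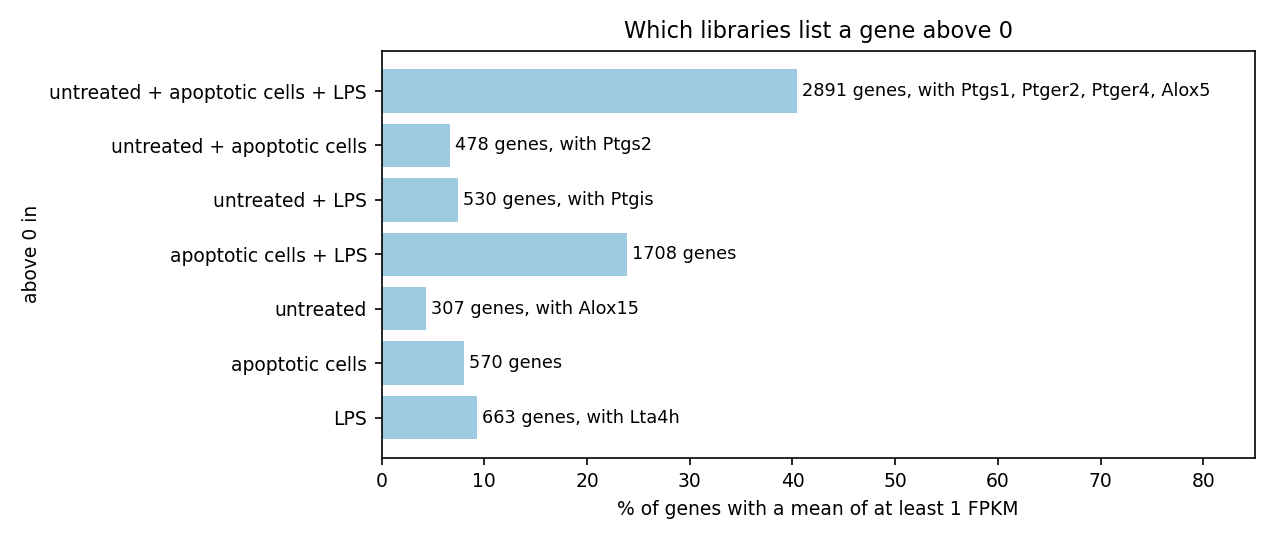
Share of the 7147 genes averaging 1 FPKM or more that are listed above 0 in each combination of libraries, in percent, with the number of genes and the members in that combination beside each bar. Of the 8 members, 4 are above 0 in all 3 libraries and the other 4 fall into 4 different combinations.

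Counted together, 5 members could be compared between apoptotic cells and no treatment, with Ptgs1 and Alox5 (2) at least 2-fold higher and Ptgs2 (1) lower. The background over all 3369 genes compared was 12.4% higher and 16.4% lower, and after median-of-ratios scaling 16.0% and 12.7%, with 3 members higher and 1 lower. For LPS against no treatment 5 members could be compared, of which 2 were higher (Ptger2 and Alox5) and 1 lower (Ptger4). The shares of all 3421 genes were 8.51% and 26.2%, and 18.9% and 13.2% after that scaling, with 3 members higher and 0 lower. Between apoptotic cells and LPS 4 members could be compared, of which 2 were higher with apoptotic cells (Ptgs1 and Ptger4) and 0 lower, beside 15.7% and 5.54% of all 4599 genes, or 9.11% and 9.63% after scaling, with 1 member higher and 0 lower. The median log2 ratio of the members was 0.93, 0.68 and 0.78 in these comparisons, and that of all genes was -0.13, -0.40 and 0.32. The first 2 comparisons share the untreated library, and each library enters 2 of the 3.

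**Figure D3:**
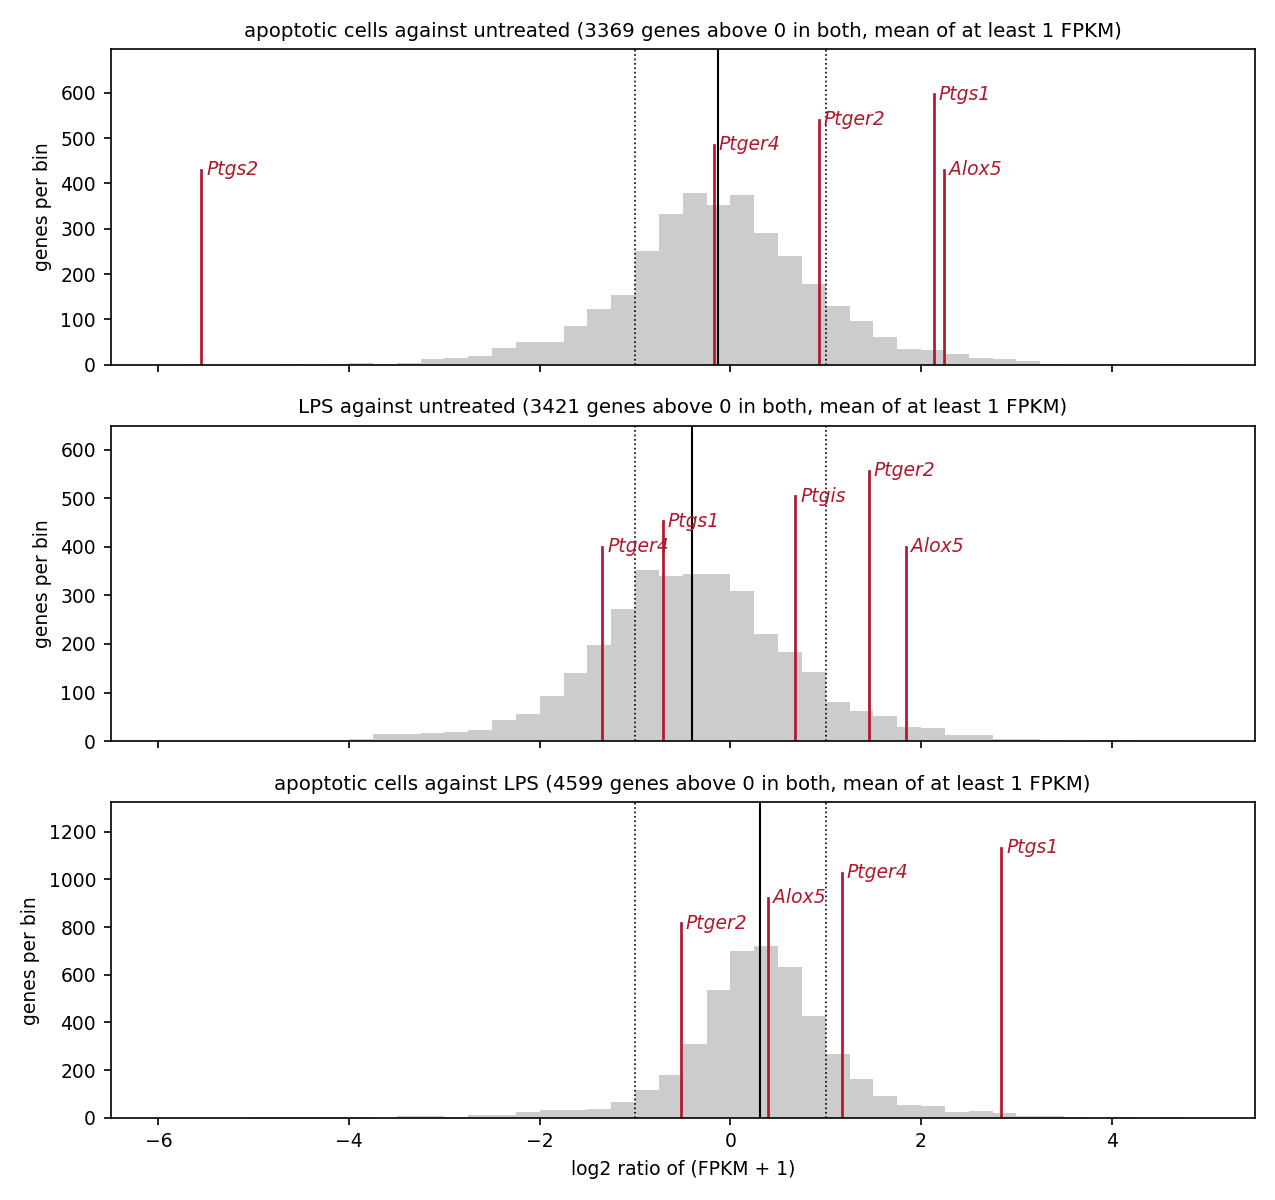
Distribution of log2 ratios of (FPKM + 1) over all genes above 0 in both libraries, in bins of genes, for the 3 comparisons; the solid black line is the median, dotted lines mark 2-fold, and red lines mark the members. Ptgs2 lies at -5.55 and Ptgs1 at 2.13 in the comparison of apoptotic cells with no treatment.

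The members sit in a longer pathway, for which 69 genes were listed by role. Of these 63 have a row, 30 have a mean of at least 1 FPKM (the 8 members among them), and 16 were listed at 0 in every library. Of the 30, 17 have a 0 in at least 1 library. With apoptotic cells against no treatment 18 of the 69, members included, could be compared: 7 passed 2-fold upward and 4 downward, around a median log2 ratio of 0.25, beside 12.4% of all genes higher and 16.4% lower and a median of -0.13. With LPS against no treatment 16 could be compared, of which 5 were higher and 2 lower, with a median of 0.21, beside 8.51% and 26.2% of all genes and a median of -0.40. Between apoptotic cells and LPS 6 of 16 were higher with apoptotic cells and 1 lower, with a median of 0.52, beside 15.7% and 5.54% of all genes and a median of 0.32. The counts for single roles below are read against the same shares of all genes.

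**Figure D4:**
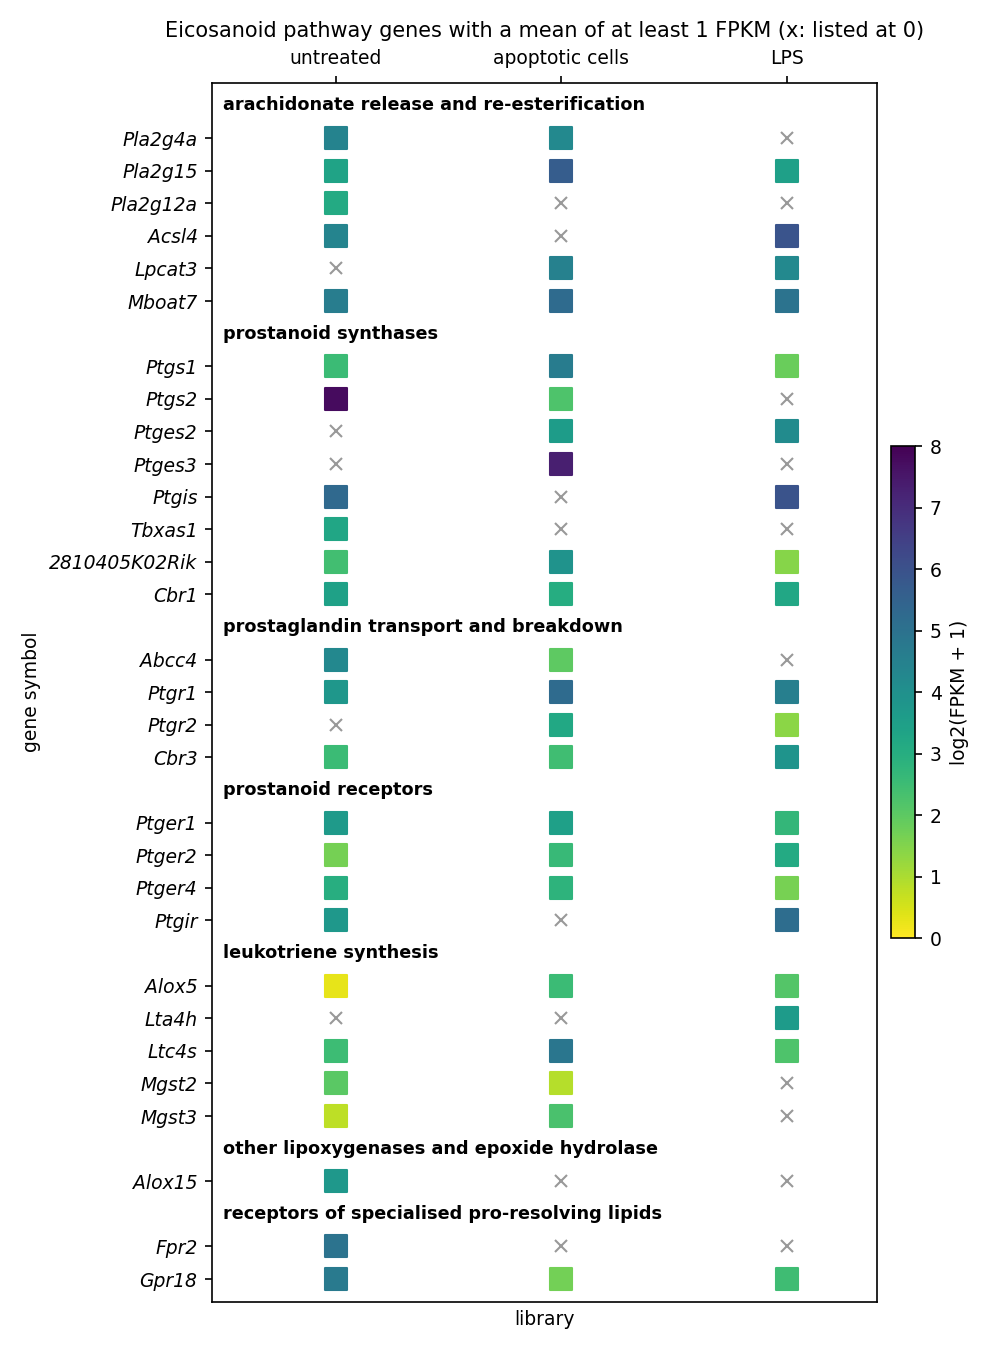
Level of the 30 pathway genes averaging 1 FPKM or more, grouped by role, as log2(FPKM + 1) in colour for each library; crosses are values listed at 0. Ptgs2 at 218 FPKM untreated and Ptges3 at 160 FPKM with apoptotic cells are the darkest squares, and 17 of the 30 genes have at least 1 cross.

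At the step that frees arachidonic acid, Pla2g4a, the cytosolic phospholipase that supplies both families, was listed at 20.2 FPKM untreated, 17.8 FPKM with apoptotic cells and 0 with LPS (ratio of the first pair -0.17). Pla2g15, a lysosomal phospholipase, stood at 9.36 FPKM untreated, 49.6 FPKM with apoptotic cells and 10.2 FPKM with LPS, a log2 ratio of 2.29 with apoptotic cells. Pla2g12a was listed at 7.78 FPKM untreated and at 0 in the others. Of the genes that return arachidonate to membranes, Acsl4 was listed at 19.8, 0 and 59.3 FPKM (1.53 for LPS against no treatment), Lpcat3 at 0, 22.1 and 17.7 FPKM, and Mboat7 at 24.1, 36.8 and 30.02 FPKM, under 2-fold throughout. The list had 1 of 3 genes higher with apoptotic cells and 1 of 3 higher with LPS.

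Among the other terminal synthases, the prostaglandin F synthase gene 2810405K02Rik (now Prxl2b) was ordered like Ptgs1, with 4.35 FPKM untreated, 13.8 FPKM with apoptotic cells and 1.76 FPKM with LPS. Its ratio with apoptotic cells was 1.47. The thromboxane synthase gene Tbxas1 was listed at 8.62 FPKM untreated and 0 in the others, and Ptges2, a further prostaglandin E synthase gene, at 0, 11.3 and 17.2 FPKM. Cbr1, a carbonyl reductase that acts on prostaglandin E2, stayed under 2-fold in all comparisons (9.80, 7.18 and 8.39 FPKM). The synthase list had 2 of 4 genes higher and 1 lower with apoptotic cells, and 0 of 4 past 2-fold with LPS.

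For export and breakdown, the transporter gene Abcc4, which moves prostaglandin E2 out of cells, was listed at 18.2 FPKM untreated, 2.997 FPKM with apoptotic cells and 0 with LPS (ratio of the first pair -2.26). Ptgr1, a reductase that inactivates prostaglandins and leukotriene B4, was listed at 12.5, 36.7 and 23.0 FPKM, a log2 ratio of 1.48 with apoptotic cells and 0.83 with LPS. Ptgr2 was listed at 0, 8.26 and 1.62 FPKM. Cbr3 was highest with LPS, at 13.5 FPKM against 4.89 FPKM untreated and 4.51 FPKM with apoptotic cells, a ratio of 1.29 for LPS against no treatment.

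On the leukotriene side, Ltc4s, which encodes leukotriene C4 synthase, was listed at 4.75 FPKM untreated, 28.3 FPKM with apoptotic cells and 3.73 FPKM with LPS. The apoptotic-cell library was again the high one: the log2 ratio was 2.35 against no treatment and 2.63 against LPS. Mgst3, a membrane glutathione transferase, was also higher with apoptotic cells, at 3.93 against 0.748 FPKM (log2 ratio 1.498), while its relative Mgst2, which can make leukotriene C4, was lower, at 0.835 against 3.13 FPKM (-1.17). Both were listed at 0 with LPS. The untreated value of Mgst3 and the apoptotic-cell value of Mgst2 are under 1 FPKM and stand for few fragments. The same holds for the untreated value of Alox5, which is also in the count below. With a pseudocount of 5 FPKM the pathway genes of all roles higher with apoptotic cells than untreated went from 7 to 5. Those lower went from 4 to 3. The leukotriene synthesis list thus had 3 of 4 genes higher and 1 lower with apoptotic cells, and 1 of 2 higher with LPS, beside 12.4% of all genes higher and 16.4% lower with apoptotic cells and 8.51% higher with LPS. None of the 6 leukotriene receptor genes reached a mean of 1 FPKM, and 4 of them were listed at 0 in every library.

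Among receptors for pro-resolving lipids, Gpr18 was lower in both treated libraries, with 25.7 FPKM untreated, 2.26 FPKM with apoptotic cells and 4.62 FPKM with LPS (log2 ratios -3.03 and -2.25). Gpr18 is also well known in lymphocytes, whose markers are given below. Fpr2, a formyl peptide receptor that also binds lipoxin A4, was listed at 29.9 FPKM untreated and 0 in the others.

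For the 4 members above 0 in every library, the closest profiles among 2891 such genes were found by distance between log2(FPKM + 1) values centred on their mean over the 3 libraries. Nearest to Ptgs1 were Abcd2, Phlda3 and Fam198b (distances 0.094 to 0.11), and nearest to Ptger2 were Gabarapl1, Il13ra1 and Nxt2 (0.042 to 0.067). Nearest to Ptger4 were Haus4, Hist2h2be and Tmem184c (0.012 to 0.047), and nearest to Alox5 were Cstb, Stom and Gsto1 (0.059 to 0.15). Each distance rests on 3 values. Because of the added 1 FPKM, genes of unlike level can lie close on this scale although their FPKM differ by unlike factors. Alox5 was 20.6-fold higher in FPKM with apoptotic cells than untreated, whereas Cstb stood at 438 FPKM untreated and 1998 FPKM with apoptotic cells.

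Peritoneal preparations can hold other cells that use these enzymes, and in bulk RNA fewer cells of a type and less RNA per cell cannot be told apart. Of 8 macrophage markers 4 have a row. Csf1r stood at 56.3, 185 and 0 FPKM, Cd14 at 303, 555 and 0 FPKM, and all 4 together at 360, 744 and 1.53 FPKM. Csf1r and Cd14 were thus high in the first pair of libraries and listed at 0 with LPS, whereas Mrc1 stood at 0, 0.950 and 1.15 FPKM and Fcgr1 at 0.115, 3.29 and 0.377 FPKM. Mast cells express Ptgs1, Alox5 and Ltc4s strongly. Their 8 markers summed to 103 FPKM untreated, 20.1 FPKM with apoptotic cells and 10.2 FPKM with LPS, 6 of them above 0 in each library, with Cpa3 at 8.85, 0 and 1.12 FPKM and Tpsb2 at 23.8, 4.72 and 2.99 FPKM. The part of mast cells in the Ptgs1, Alox5 and Ltc4s values was not tested.

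Mesothelial cells and fibroblasts, which can express Ptgis and Ptgs2, had 11 markers that summed to 29.1, 2.76 and 1.13 FPKM, with 9, 8 and 2 above 0. Msln was at 1.58, 0.151 and 0 FPKM, and Upk3b at 0.357, 0 and 0.190 FPKM. The part of mesothelial cells and fibroblasts in the Ptgis and Ptgs2 values was not tested. Large peritoneal macrophage markers, relevant to Alox15, summed to 436, 373 and 150 FPKM over 9 genes with 6, 2 and 5 above 0. Lyz1 (349, 0 and 0 FPKM) made up most of the untreated sum and Cxcl13 (44.7, 364 and 112 FPKM) most of the others. Gata6 was at 0, 0 and 8.81 FPKM and Timd4 at 3.29, 0 and 7.74 FPKM, and Vsig4 (8.04, 0 and 11.6 FPKM) was likewise highest with LPS.

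Platelet markers summed to 108, 636 and 702 FPKM, almost all of it Pf4 (106, 635 and 702 FPKM), which macrophages also express, while Itga2b was at 0.488, 0 and 0 FPKM. B-cell markers summed to 649, 197 and 165 FPKM over 8 genes with 3, 6 and 8 above 0. Ly6d (563, 42.7 and 73.9 FPKM) and Blnk (82.7, 38.4 and 18.5 FPKM) made up most of the untreated sum, whereas Ms4a1 (0, 28.9 and 15.9 FPKM), Cd79b (0, 85.6 and 19.1 FPKM), Cd79a (0, 0 and 33.6 FPKM), Pax5 (0, 1.47 and 2.12 FPKM) and Cd22 (0, 0 and 1.63 FPKM) were listed at 0 untreated. T-cell and thymocyte markers summed to 17.0, 84.9 and 2.21 FPKM over 9 genes with 2, 8 and 6 above 0. Cd3e was at 0, 7.10 and 0 FPKM and Cd3d at 0, 8.25 and 0 FPKM. Dntt (13.5, 13.0 and 0.160 FPKM) and Cd4 (3.48, 1.80 and 0.195 FPKM) made up the untreated sum. Rag1 (0, 41.2 and 0.679 FPKM) was the largest part of the apoptotic-cell sum. Neutrophil markers summed to 54.6, 138 and 224 FPKM, mostly S100a8, with Elane at 0 in every library. Eosinophil and endothelial markers summed to at most 0.407 and 1.40 FPKM in any library. The part of these cells in the differences above was not tested.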

How the data were processed

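Total RNA was extracted with Trizol and sequenced, per the labels, in 3 libraries, 1 per condition. The deposited values are taken as FPKM made by the authors with Cufflinks 2.2.1, which the submitters' processing notes list beside Cuffdiff, TopHat2 2.1.0, cutadapt 1.14 and the build mm10; the headers state no unit. For their options, the annotation and the strandedness, the sources used here give nothing. Library sums were 199881, 197222 and 200224 FPKM (untreated, apoptotic cells, LPS), with 6747, 7970 and 7844 genes above 0.

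Depth is not stated. Steps between values under 1 FPKM of genes with 1 annotated transcript fitted 0.313, 0.303 and 0.368 FPKM per fragment on 1 kb. Only 34.4% to 39.4% of those values came within 0.1 of a whole fragment, so fragments were not recovered, no count test was run, and fragment numbers are rough.

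Ratios are log2((FPKM + 1)/(FPKM + 1)) for genes above 0 in both libraries that average 1 FPKM or more over the 3. A difference of at least 2-fold is a description. Members, lists and rules were chosen with earlier results of these data known. Named are all members with a row, pathway genes averaging 1 FPKM or more, the first 2 markers of the lists of other cells where they have a row and bear on a member, and the 3 closest profiles; other markers and genes were named after their values were seen, and 1 planned B-cell marker is not reported here. Older symbols were matched through RefSeq synonyms, coordinates and exon numbers (principal transcript) are from GENCODE M21, and 7 members had a RefSeq promoter entry. Alternatives were other pseudocounts, filters, fold thresholds and scalings, and a listed 0 taken as a value. The functions were tested on simulated data. Work was done in Python 3.11.15 with pandas 2.3.3, numpy 2.4.6 and matplotlib 3.10.9.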

Additional observations from a re-analysis of the deposited data

How the results depend on the processing

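No paired analysis was possible because each condition has 1 library, and for the same reason no library could be left out. Single ratios count as unchanged within 0.3 log2 on the same side of the threshold: under the other pseudocounts and scalings, the settings that can alter a ratio, 39 of 70 values were unchanged, 31 moved and 0 reversed a difference of at least 2-fold. That 0 could hardly come out otherwise, so it shows no stability. A pseudocount cannot change a sign, and the scalings shifted ratios too little to turn a 2-fold difference. Counts of members within 1.5-fold of the main count are taken as unchanged and are not listed below. In each comparison the main count of 2 higher members became 3 under at least 1 such setting. For apoptotic cells against no treatment the 2 higher members became 1 with a pseudocount of 5 FPKM and 1 with a mean of at least 5 FPKM, and the 1 lower member became 3 with a listed 0 taken as a value. For LPS against no treatment the 2 higher members became 0 with a pseudocount of 5 FPKM, 1 with a mean of at least 5 FPKM and 0 at 4-fold. The 1 lower member became 0 with a pseudocount of 5 FPKM, 0 with median-of-ratios scaling, 0 at 4-fold, 3 with zeros taken as values and 2 at 1.5-fold. For apoptotic cells against LPS the 2 higher members became 1 with a pseudocount of 5 FPKM, 1 with median-of-ratios scaling and 1 at 4-fold, and the 0 lower members became 2 with a listed 0 taken as a value. Taking zeros as values also gave 11 higher and 11 lower pathway genes with apoptotic cells and 9 and 10 with LPS, each against no treatment. For apoptotic cells against LPS it gave 11 and 5. These are of the 30 pathway genes averaging 1 FPKM or more. Under that setting 37.5% of all 7147 genes were higher and 19.3% lower with apoptotic cells, and 36.4% and 23.4% with LPS. For apoptotic cells against LPS the shares were 24.4% and 19.9%. Across alternatives the ratio of apoptotic cells to no treatment ran from -5.85 to -4.68 for Ptgs2, from 1.59 to 2.32 for Ptgs1 and from 0.91 to 3.88 for Alox5, whose untreated level is the lowest of the members above 0. Median-of-ratios scaling moved the median of all genes from -0.40 to 0.10 for LPS against no treatment, from -0.13 to 0.04 for apoptotic cells against no treatment and from 0.32 to -0.01 for apoptotic cells against LPS.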

Other observations

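Some pathway genes under a mean of 1 FPKM are given here for their values, and were picked after those were seen. Cysltr1, a receptor for cysteinyl leukotrienes, was listed at 0.246 FPKM untreated, 1.43 FPKM with apoptotic cells and 0.943 FPKM with LPS. Ltb4r1, the high-affinity leukotriene B4 receptor gene, was listed at 0.368, 1.137 and 0 FPKM, and Hpgds, the haematopoietic prostaglandin D synthase gene, at 0, 0.964 and 0.272 FPKM. Hpgd, whose product starts the breakdown of prostaglandin E2, was listed at 0.406, 0.865 and 0 FPKM. For these 4 genes the apoptotic-cell library held the highest value, but other low pathway genes were ordered otherwise. Ephx2 was listed at 0, 0 and 1.74 FPKM, Akr1c18 at 1.02, 0.558 and 0 FPKM, and Ptger3 at 0.415, 0 and 0 FPKM. Slco2a1, the prostaglandin uptake transporter gene, was highest in the untreated library, at 0.704 FPKM against 0.280 FPKM with apoptotic cells and 0 with LPS. All of these values stand for few fragments.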
